A study of Mus musculus with 12 samples.

Results

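The 45 genes described here encode the machinery that copies DNA in S phase, and they were found by symbol among the 15217 genes of the deposited table. They fall into 9 roles: the MCM helicase, origin licensing, origin firing and the CMG complex, polymerases and primase, the sliding clamp and its loader, Okazaki fragment processing and single strand binding, nucleotide supply, chromatin and histone supply, and S phase entry. RNA was sequenced from the NIH-3T3 line, wild type mouse fibroblasts of embryonic origin, which went without 4-thiouridine (4sU) or received 200 µM or 800 µM 4sU for 2 h. 4sU is a uridine analogue that enters RNA made during the labelling. In SLAM-seq, iodoacetamide alters the 4sU, which then appears as C in place of T in the reads. The share of new RNA is estimated from such changes and is not itself the share of reads that carry them. The study asked how doing this reaction inside methanol-fixed cells, in place of on isolated RNA in tubes, affects what is measured. There were 6 groups of 2 libraries each, A and B: fixed cells with none, 200 µM or 800 µM of 4sU, and tubes with the same 3 amounts. Per the labels' protocols the reaction ran for 30 min at 50 °C in general and for 1 h at 37 °C in tubes. Fixation, temperature and time therefore cannot be told apart as sources of a difference between the procedures. The labels do not say that A and B came from separate cultures, so the p-values measure the spread between libraries, which may be technical.

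Replication starts at origins that the origin recognition complex (ORC), Cdc6 and Cdt1 load with the MCM helicase in G1. In S phase, Cdc45 and the GINS complex join MCM to form the active CMG helicase. DNA polymerase alpha with its primase lays down primers, polymerases epsilon and delta extend the leading and lagging strands, and the clamp PCNA, loaded by replication factor C (RFC), holds them on DNA. Many of these genes are targets of E2F transcription factors, which are released when cyclin E and its kinase inactivate the retinoblastoma protein, and dividing fibroblasts express them in a cell cycle dependent way. NIH-3T3 cultures hold cells of all phases, and in such bulk samples fewer cells in S phase and less RNA per cell cannot be told apart.

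Promoters were looked at first, since the genes share E2F as a known regulator. RefSeq promoters on GRCm38.p6, reaching from 250 bases before to 50 bases after the start, matched 37 of the 45 genes, in 43 windows. Mcm4, Gins1, Gins2, Gins4, Prim2, Pole, Rfc2 and Ccne2 had no entry. An E2F motif, TTCCCGC or TTGGCGC on either strand, was found for 20 of the 37 genes (54.1%) and in 48.8% of their windows. Of all promoters, 6.81% of 32851 windows and 7.79% of 27025 genes held it. These promoters include genes that were not tested here, so they are not a background of expressed genes. CCAAT, the motif bound by NF-Y, was found on either strand for 24 of the 37 genes (64.9%) and in 60.5% of their windows, against 41.1% of all genes and 37.4% of all windows. A CCAAT read on the reverse strand can overlap the TTGGCGC form, and such letters count for both motifs. The 5 promoters below are printed 5′ to 3′ on the strand of the gene with E2F motifs in capitals. They are those of Mcm6 and Mcm5, which were higher in fixed cells at each dose, of Rfc1, which was lower at each dose, of Cdt1, which had the highest share of new RNA, and of Pcna, the gene that was higher after 800 µM 4sU in tubes. The windows are chr1:128359656-128359955 on the minus strand, chr8:75109259-75109558 on the plus strand, chr5:65335590-65335889 on the minus strand, chr8:122567765-122568064 on the plus strand and chr2:132253131-132253430 on the minus strand. Mcm6, Mcm5, Rfc1 and Cdt1 each had 2 matches and Pcna had 0. In Rfc1 the 2 matches overlap as a palindrome, and a motif is a match of letters and not a measured binding site.
Mcm6: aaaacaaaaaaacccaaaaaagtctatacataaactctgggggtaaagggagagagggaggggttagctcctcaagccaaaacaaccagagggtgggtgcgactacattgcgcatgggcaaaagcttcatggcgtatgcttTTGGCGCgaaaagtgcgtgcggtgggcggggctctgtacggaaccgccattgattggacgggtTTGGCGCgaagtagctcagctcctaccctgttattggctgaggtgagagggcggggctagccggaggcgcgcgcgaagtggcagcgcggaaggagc
Mcm5: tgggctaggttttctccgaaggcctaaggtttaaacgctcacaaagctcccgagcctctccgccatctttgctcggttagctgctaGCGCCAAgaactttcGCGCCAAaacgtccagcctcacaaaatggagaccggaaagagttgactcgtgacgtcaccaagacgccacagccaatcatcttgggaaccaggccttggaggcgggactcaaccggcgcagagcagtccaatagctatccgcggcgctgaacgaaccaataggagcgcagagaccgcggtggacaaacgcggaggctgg
Rfc1: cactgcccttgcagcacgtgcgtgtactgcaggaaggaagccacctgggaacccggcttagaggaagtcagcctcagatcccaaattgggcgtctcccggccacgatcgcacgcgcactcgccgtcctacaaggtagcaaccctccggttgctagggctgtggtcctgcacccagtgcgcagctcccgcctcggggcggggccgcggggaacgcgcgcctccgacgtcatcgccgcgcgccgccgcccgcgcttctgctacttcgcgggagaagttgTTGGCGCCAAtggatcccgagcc
Cdt1: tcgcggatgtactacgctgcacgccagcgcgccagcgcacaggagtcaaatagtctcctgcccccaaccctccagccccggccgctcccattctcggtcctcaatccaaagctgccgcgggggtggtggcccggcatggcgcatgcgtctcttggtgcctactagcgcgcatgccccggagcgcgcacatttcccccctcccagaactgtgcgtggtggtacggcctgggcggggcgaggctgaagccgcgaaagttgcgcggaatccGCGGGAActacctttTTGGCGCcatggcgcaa
Pcna: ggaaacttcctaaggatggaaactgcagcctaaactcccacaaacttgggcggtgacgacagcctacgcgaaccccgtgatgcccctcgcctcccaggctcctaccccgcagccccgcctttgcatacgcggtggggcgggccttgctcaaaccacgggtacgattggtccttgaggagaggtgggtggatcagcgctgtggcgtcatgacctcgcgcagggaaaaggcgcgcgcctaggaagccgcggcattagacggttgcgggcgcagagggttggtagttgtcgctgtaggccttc

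Libraries held 3629630 to 7762640 counts in all, deposited by the authors per gene as estimated counts that need not be whole. All 45 genes were among the 11080 that passed the filter on low counts, with at least 11 counts in every library. The first principal component of the 12 libraries held 48.9% of the variance and set fixed cells (20.8 to 44.4) apart from tubes (-38 to -23.4). Fixed 800 µM library A lay farthest out and had the lowest TMM scaling factor, 0.835, so results that include it are also given without it where that changes a call or moves a count by over 1.5 times. All 12 fibroblast markers looked for were in the table, with summed levels of 18005 to 23520 CPM (counts scaled to a common library size) in fixed cells and 15871 to 19281 CPM in tubes. The 11 markers of other cell types in the table, of 20 looked for, summed to 10.4 to 17.4 CPM in fixed cells and 8.52 to 18.1 CPM in tubes. The part of either set in the results was not tested. Among the fibroblast markers, S100a4 and Vim had the highest medians over the libraries, 8892 and 4371 CPM. Lum had a median of 2.37 CPM, below the blood marker Cd68 (5.88 CPM) and the neural marker Tubb3 (4.78 CPM).

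Levels per kilobase spanned a wide range among the replication genes. The highest were Mcm7, a subunit of the MCM ring, at 143 ± 12.1 CPM per kilobase (SD, n = 12 libraries), Pcna, the sliding clamp, at 142 ± 36.7, and Lig1, the ligase that seals Okazaki fragments, at 139 ± 18.5. Tk1, the thymidine salvage kinase, followed at 115 ± 48.6 CPM per kilobase. The lowest were Gins3, a GINS subunit, at 5.08 ± 1.13, and Orc1, the largest ORC subunit, at 5.36 ± 1.06 CPM per kilobase. The 3 highest lay within each other's SD, and so did the 2 lowest. Within the MCM ring, whose subunits act in equal numbers, the level ran from 37.4 for Mcm6 to 143 CPM per kilobase for Mcm7, with a median of 56.2. Reads of Mcm7 and of 11 other replication genes (Ccne2, Cdc45, Chaf1a, Fen1, Gins2, Lig1, Orc6, Rfc2, Rfc4, Rfc5 and Tk1) could be shared with a gene on the opposite strand that overlaps one of their exons, and the sources used here do not say whether counting used strand. Pcna and Tyms also have processed pseudogenes, so their counts may hold or lack reads of those copies.

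The genes with the highest level of their role are given in each library here or beside their tests. Mcm7 had 418 and 442 CPM with no 4sU, 473 and 458 CPM at 200 µM and 425 and 465 CPM at 800 µM in fixed cells, against 377 and 369.5 CPM with no 4sU, 436 and 421 CPM at 200 µM and 427 and 366 CPM at 800 µM in tubes. Lig1 had 444 and 405 CPM with no 4sU, 357 and 346 CPM at 200 µM and 496 and 426 CPM at 800 µM in fixed cells, against 455 and 557 CPM with no 4sU, 466 and 445 CPM at 200 µM and 439.6 and 503 CPM at 800 µM in tubes. Both genes overlapped between procedures over the whole set of libraries. Gins4, the highest GINS subunit, had 58.6 and 57.4 CPM with no 4sU, 71.1 and 62.5 CPM at 200 µM and 76.6 and 67 CPM at 800 µM in fixed cells, against 38.5 and 45 CPM with no 4sU, 47.3 and 50.2 CPM at 200 µM and 39.8 and 50.4 CPM at 800 µM in tubes, with no overlap between procedures. Uhrf1, which reads half-methylated DNA behind the fork, had 107 and 81.2 CPM with no 4sU, 72.2 and 76.1 CPM at 200 µM and 96.1 and 84 CPM at 800 µM in fixed cells, against 129.9 and 149 CPM with no 4sU, 123 and 106 CPM at 200 µM and 112 and 147 CPM at 800 µM in tubes. Its fixed and tube libraries met only where the highest fixed value, of library A without 4sU, passed the lowest tube value.

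**Figure D1:**
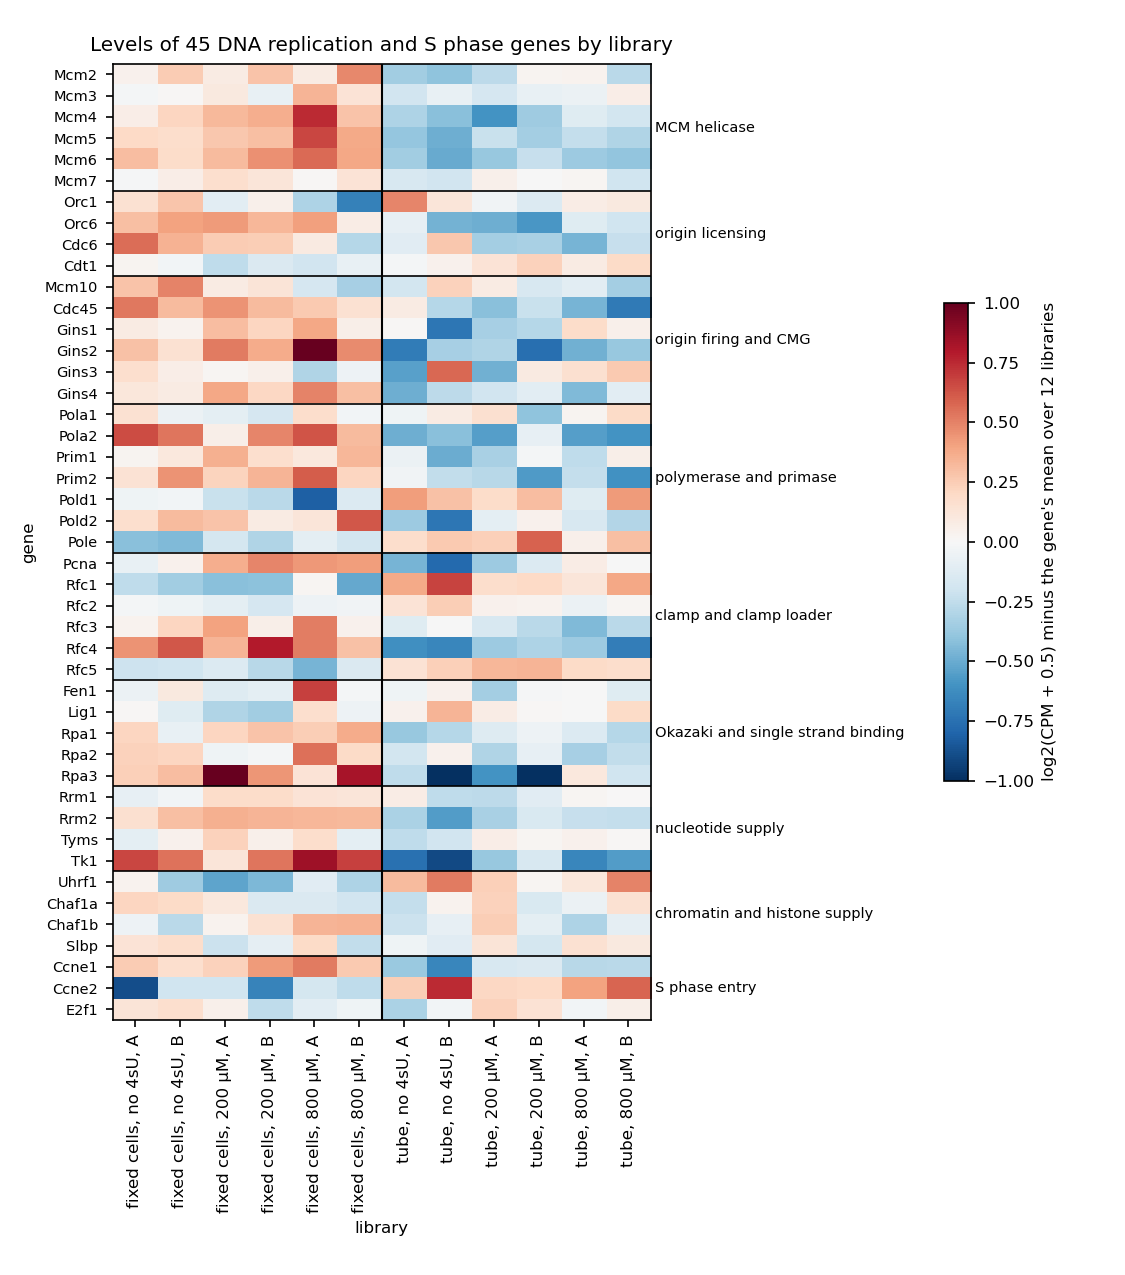
Level of each of the 45 genes (rows, by role) in each of the 12 libraries (columns, fixed cells left and tubes right), as log2(CPM + 0.5) minus the mean of the gene over 12 libraries; colours saturate at 1 and -1. Every fixed library is above (redder than) every tube library for Tk1, Rfc4 and Pola2 and below it for Rfc1, Rfc5 and Ccne2.

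The share of new RNA differed widely among the replication genes. It is the deposited new-to-total ratio of a gene after 2 h of 4sU, here as its maximum a posteriori value, and a high value means that much of the RNA was made during the labelling. The ratio was read for 38 genes with at least 100 counts in each of the 8 libraries with 4sU; Orc1, Cdc45, Gins1, Gins3, Pold1, Rfc4 and Rpa3 fell below that. Across those libraries the mean ratio ran from 12% for Rfc2 to 96.3% for Cdt1. It was over 50% for 12 genes, over 75% for 6 of them (Cdt1, Ccne2, Slbp, Cdc6, Fen1 and Mcm10), and below 20% for 5. The median over the 38 genes was 32.4% in fixed cells at 200 µM and 27.1% at 800 µM, and 41.9% in tubes at 200 µM and 35.3% at 800 µM. The medians of all 5538 genes read in the same way were 35.1%, 29.0%, 41.0% and 36.3%, so as a group the replication genes were near the rest. Libraries without 4sU have no ratio here, so no background of it is given.

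By role, licensing genes had the highest median ratio, 83.8% over 3 genes, and the genes for origin firing and CMG the lowest, 19.0% over 3 genes. The licensing genes ran from 54.7% for Orc6 to 96.3% for Cdt1. Those for origin firing and CMG ran from 17.4% for Gins2 to 80.0% for Mcm10, so their median does not describe the role as a whole. Cdc45, Gins1 and Gins3 of that role were below the count minimum. Cdt1, the licensing factor that is degraded when S phase begins, had ratios of 100.0% and 100.0% at 200 µM, with 93.1% and 95.8% at 800 µM, in fixed cells, and of 96.9% and 95.3% at 200 µM, with 96.2% and 93.4% at 800 µM, in tubes. Ccne2, one of the cyclin E genes, had ratios of 100.0% and 96.8% at 200 µM, with 100.0% and 78.7% at 800 µM, in fixed cells, and of 96.2% and 87.4% at 200 µM, with 82.4% and 85.5% at 800 µM, in tubes. Slbp, which binds the stem loop of histone messages, had ratios of 90.5% and 89% at 200 µM, with 69.1% and 86.6% at 800 µM, in fixed cells, and of 93.3% and 90.8% at 200 µM, with 87.9% and 85.7% at 800 µM, in tubes. These were the 3 highest means, and Cdt1 was above 90% in each of the 8 libraries.

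At the other end, Rfc2, a small subunit of the clamp loader, had ratios of 10.2% and 12.6% at 200 µM, with 4.36% and 9.74% at 800 µM, in fixed cells, and of 11.8% and 11.6% at 200 µM, with 18.2% and 17.3% at 800 µM, in tubes. Rpa1, the large subunit of the single strand binding protein, had ratios of 14.2% and 14.2% at 200 µM, with 9.2% and 13.9% at 800 µM, in fixed cells, and of 18.7% and 19% at 200 µM, with 16% and 12.6% at 800 µM, in tubes. Gins2, a GINS subunit, had ratios of 7.46% and 19.7% at 200 µM, with 7.42% and 17.4% at 800 µM, in fixed cells, and of 28.4% and 23.4% at 200 µM, with 18.6% and 16.7% at 800 µM, in tubes. Subunits of one complex could differ widely. Rpa2 averaged 68.7% against 14.7% for Rpa1, Rrm2, the regulated subunit of ribonucleotide reductase, 59.6% against 27.2% for Rrm1, and Rfc3 52.7% against 12% for Rfc2. In each of these 3 pairs the lowest of 8 libraries of the first gene was above the highest of the second. The 6 MCM genes were closer together, at 21.1% for Mcm6 to 36.7% for Mcm3.

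**Figure D2:**
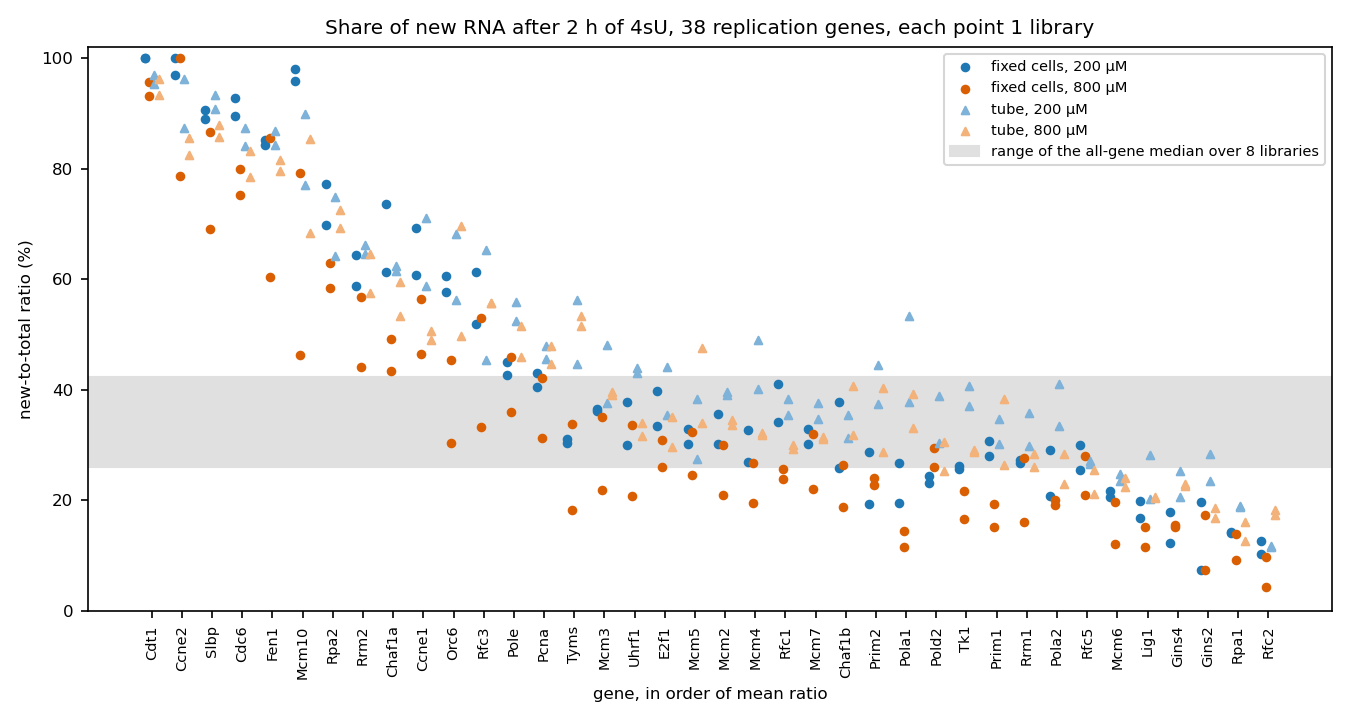
New-to-total ratio (%) of the 38 genes read, in order of their mean over 8 libraries; each point is 1 library, circles are fixed cells and triangles tubes, and the grey band spans the all-gene medians of the 8 libraries. Cdt1, Ccne2 and Slbp stand at the high end and Gins2, Rpa1 and Rfc2 at the low end.

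Between fixed cells and tubes, no gene of the 5538 tested passed the threshold for the ratio at either dose (limma on the logit of the ratio, BH-adjusted p under 0.05, 0% called), and hence 0 of the 38 replication genes did. At an unadjusted p under 0.05 there were 10 of the 38 at 200 µM (18.6% of all genes) and 10 at 800 µM (20.7% of all genes). Without overlap between the groups, 21 of the 38 genes were lower in fixed cells at 200 µM, where 42.9% of all genes were, and 22 were lower at 800 µM, where 48.6% of all genes were. The smallest p belonged to Pola1, the catalytic subunit of polymerase alpha, with ratios of 14.4% and 11.6% in fixed cells at 800 µM against 33% and 39.2% in tubes. Its logit difference was -1.33 (SE 0.25, limma adjusted p = 0.0895), and at 200 µM the values were 26.8% and 19.5% in fixed cells and 53.4% and 37.9% in tubes. The groups did not overlap at either dose. Tyms, thymidylate synthase, had 18.2% and 33.8% in fixed cells at 800 µM and 51.6% and 53.3% in tubes, also without overlap (limma adjusted p = 0.115).

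The comparison at 800 µM changed with 1 library. Without fixed 800 µM library B, limma called 968 of all genes, and 6 replication genes were lower in fixed cells (Mcm2, Mcm6, Rfc2, Rrm1, Tyms and Tk1). Library A alone then stood for the fixed cells, assumed to vary like the other groups, and it had the lowest median ratio of the 8 libraries, 23.3% over the 38 genes against 31.5% in library B. From 200 to 800 µM, 0 of the 38 genes passed in fixed cells and 0 in tubes, where 0% of all genes did. At an unadjusted p under 0.05 there were 9 in fixed cells (16.7% of all genes) and 3 in tubes (8.34% of all genes). The groups did not overlap for 22 genes that were lower at 800 µM in fixed cells and for 19 in tubes, where 47.3% and 44.6% of all genes were. Without fixed 800 µM library B, 6 genes were called lower at 800 µM in fixed cells (Mcm6, Cdt1, Mcm10, Rfc2, Fen1 and Tk1), among 631 of all genes.

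Few replication genes were called for a change in total level after 4sU, as was so for all genes. In tubes at 200 µM against no 4sU, edgeR's quasi-likelihood test called 1 of the 45 genes, while 3.75% of all genes were called. That gene was higher (2.36% of all genes), and 0 were lower (1.39% of all genes), with 7 at an unadjusted p under 0.05, where 20.8% of all genes were. Without overlap between groups, 14 were higher, where 28.7% of all genes were, and 9 lower, where 21.6% were. The gene was Tk1, with 201 and 234 CPM at 200 µM against 155 and 139.6 CPM without 4sU (log2 change 0.56, SE 0.15, adjusted p = 0.0427). Its groups did not overlap, but the call was lost when any 1 of the 4 libraries was left out (adjusted p 0.0568 to 0.257). At 800 µM in tubes 1 gene was called, while 1.87% of all genes were. It was higher (0.912% of all genes), and 0 were lower (0.957% of all genes), with 3 at an unadjusted p under 0.05, where 17.6% of all genes were. Without overlap, 15 were higher, where 27.8% of all genes were, and 7 lower, where 22% were. This was Pcna, with 219.6 and 208 CPM at 800 µM against 151 and 121 CPM without 4sU (log2 change 0.66, SE 0.14, adjusted p = 0.0181). The groups did not overlap, and the call was lost without either 800 µM library or without library B of the untreated tubes (adjusted p 0.118 to 0.256). The comparisons at both doses share the untreated libraries.

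In fixed cells, 0 of the 45 genes passed edgeR's threshold at 200 µM, where 0.812% of all genes did (0.244% higher and 0.569% lower), and 0 at 800 µM, where 2.66% did (0.776% higher and 1.89% lower). At an unadjusted p under 0.05 there were 1 at 200 µM, where 12.6% of all genes were, and 9 at 800 µM, where 20.1% were, and DESeq2 called 0 and 1. Without overlap at 200 µM, 15 were higher, where 24.1% of all genes were, and 18 lower, where 25.1% were. The gene that DESeq2 called was Pcna, with 281 and 279 CPM at 800 µM and 268 and 293 CPM at 200 µM against 198 and 214 CPM in fixed cells without 4sU. Its groups did not overlap at either dose, and edgeR gave log2 changes of 0.44 (SE 0.13, adjusted p = 0.0776) and 0.44 (SE 0.13, adjusted p = 0.152). In tubes at 200 µM, where Pcna had 162 and 189 CPM, the log2 change was 0.37 (SE 0.14, adjusted p = 0.123). The medians of the 45 genes were 0.02 and 0.12 on the log2 scale at 200 and 800 µM in fixed cells and 0.02 and 0.09 in tubes, against 0.00, 0.00, 0.03 and 0.03 for all genes tested.

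The largest changes at 800 µM other than that of Pcna did not pass edgeR's threshold. In fixed cells, Orc1 had 12.7 and 9.71 CPM at 800 µM and 17.7 and 19.4 CPM without 4sU (log2 change -0.73, SE 0.23, adjusted p = 0.0832). Mcm10, which helps to activate the helicase, had 30.6 and 27.3 CPM at 800 µM and 42.1 and 48.8 CPM without 4sU (log2 change -0.65, SE 0.18, adjusted p = 0.0572), and Gins2 had 92.8 and 58.1 CPM at 800 µM and 51.5 and 46.5 CPM without 4sU (log2 change 0.62, SE 0.20, adjusted p = 0.0953). None of the 3 overlapped between groups, as was so for 15 of the 45 genes upward, where 24.2% of all genes did not overlap, and 9 downward, where 25.1% did not. In tubes, Rpa3, the small subunit of the single strand binding protein, had 6.63 and 5.27 CPM at 800 µM and 5.05 and 2.18 CPM without 4sU (log2 change 0.76, SE 0.46, adjusted p = 0.414), and Cdc45 had 19.1 and 16.1 CPM at 800 µM and 28.1 and 21.8 CPM without 4sU (log2 change -0.49, SE 0.19, adjusted p = 0.186). Both were also without overlap, at low levels. An alternative scaling used only low-ratio genes, the third of tested genes whose new RNA share was lowest. It set the median of all genes at -0.13 in fixed cells at 800 µM, and Orc1, Cdc6 and Mcm10 passed as lower (log2 changes -0.86, -0.68 and -0.78), where 4.13% of all genes were lower and 0.415% higher. Without fixed 800 µM library B, 5 genes passed, with Mcm4, Mcm5, Gins2 and Fen1 higher and Pold1 lower, among 712 higher and 487 lower of all genes, and without library A 0 of the 45 did.

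No replication gene passed the test of a difference between doses, or between procedures in the effect of 4sU. From 200 to 800 µM, edgeR called 0 of the 45 genes in fixed cells and 0 in tubes, where 0% of all genes were called, and DESeq2 called 0 of the 45. At an unadjusted p under 0.05 there were 5 in fixed cells (7.87% of all genes) and 4 in tubes (8.91% of all genes). Without fixed 800 µM library B, 4 passed in fixed cells, all higher at 800 µM, among 348 higher and 136 lower of all genes. The difference between fixed cells and tubes in the 4sU effect was past the threshold for 0 genes at 200 µM and 0 at 800 µM, where again 0% of all genes passed and DESeq2 called 0 of the 45. There were 4 at an unadjusted p under 0.05 at 200 µM (8.96% of all genes) and 2 at 800 µM (5.9% of all genes). The largest differences at 200 µM were those of Rpa3 (0.93, SE 0.64, adjusted p = 0.703) and of Tk1, which had a log2 change of -0.26 in fixed cells and 0.56 in tubes (difference -0.82, SE 0.21, adjusted p = 0.273), which passed when no genes were filtered out (adjusted p = 0.0216). Over the 38 genes with a ratio, Spearman's rho between the ratio and the log2 change after 4sU was -0.27 at 200 µM and -0.26 at 800 µM in fixed cells, and -0.20 and 0.0045 in tubes. Over the 5538 genes it was -0.32, -0.37, -0.25 and -0.25. These are descriptions across genes, which share libraries and are not independent replicates.

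As in the whole table, more replication genes were called between the procedures than after 4sU. Without 4sU, edgeR called 21 of the 45 genes, while 31.4% of all genes were called (adjusted p under 0.05). Of these, 16 were higher in fixed cells than in tubes (16.2% of all genes) and 5 were lower (15.2%). The median log2 change was 0.31 for the 45 genes and -0.01 for all genes tested. Without overlap between the groups, 30 were higher, where 33.7% of all genes were, and 8 lower, where 34% were. At 200 µM, 24 were called (32.3% of all genes), 17 higher (14.6%) and 7 lower (17.8%), and at 800 µM also 24 (35.1%), 18 higher (16.8%) and 6 lower (18.3%). The count fell to 12 without 4sU when tube library B was left out. At 200 µM it was 14 without tube library A, 15 without tube library B and 12 without fixed library B, and at 800 µM it was 15 without tube library B. Without fixed 800 µM library A it was 21 at 800 µM, 18 of them higher. These 3 comparisons share no libraries. In all 3, 12 genes were called higher, where 9.08% of all genes were, and 4 were called lower, where 9.05% were. With each of the 4 libraries of a comparison left out in turn, 10 of the 21 genes kept their call without 4sU (Mcm5, Mcm6, Pola2, Pole, Rfc1, Rfc4, Rrm2, Tk1, Ccne1 and Ccne2), 8 of the 24 did at 200 µM and 11 of the 24 at 800 µM. The 12 called higher in all 3 comparisons were Mcm4, Mcm5, Mcm6, Cdc45, Gins2, Gins4, Pola2, Pcna, Rfc4, Rrm2, Tk1 and Ccne1, and the 4 called lower were Rfc1, Rfc5, Uhrf1 and Ccne2.

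The balance of higher and lower depended on the scaling. With scaling on those low-ratio genes, the median of all genes was -0.27 without 4sU, -0.26 at 200 µM and -0.32 at 800 µM. Without 4sU, 8 replication genes were then higher, where 8.6% of all genes were, and 8 lower, where 28.3% were. At 200 µM, 12 were higher (8.87% of all genes) and 10 lower (27.3%), and at 800 µM 12 were higher (9.47%) and 9 lower (32.7%). Called in all 3 comparisons were then Mcm5, Mcm6, Rfc4 and Tk1 as higher and Pold1, Pole, Rfc1, Rfc5, Uhrf1 and Ccne2 as lower. The median of the 45 genes without 4sU was 0.05 in that scaling. As a share of the raw counts of a library, the 45 genes together took 0.5% and 0.507% in fixed cells without 4sU and 0.481% and 0.477% in tubes without 4sU.

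**Figure D3:**
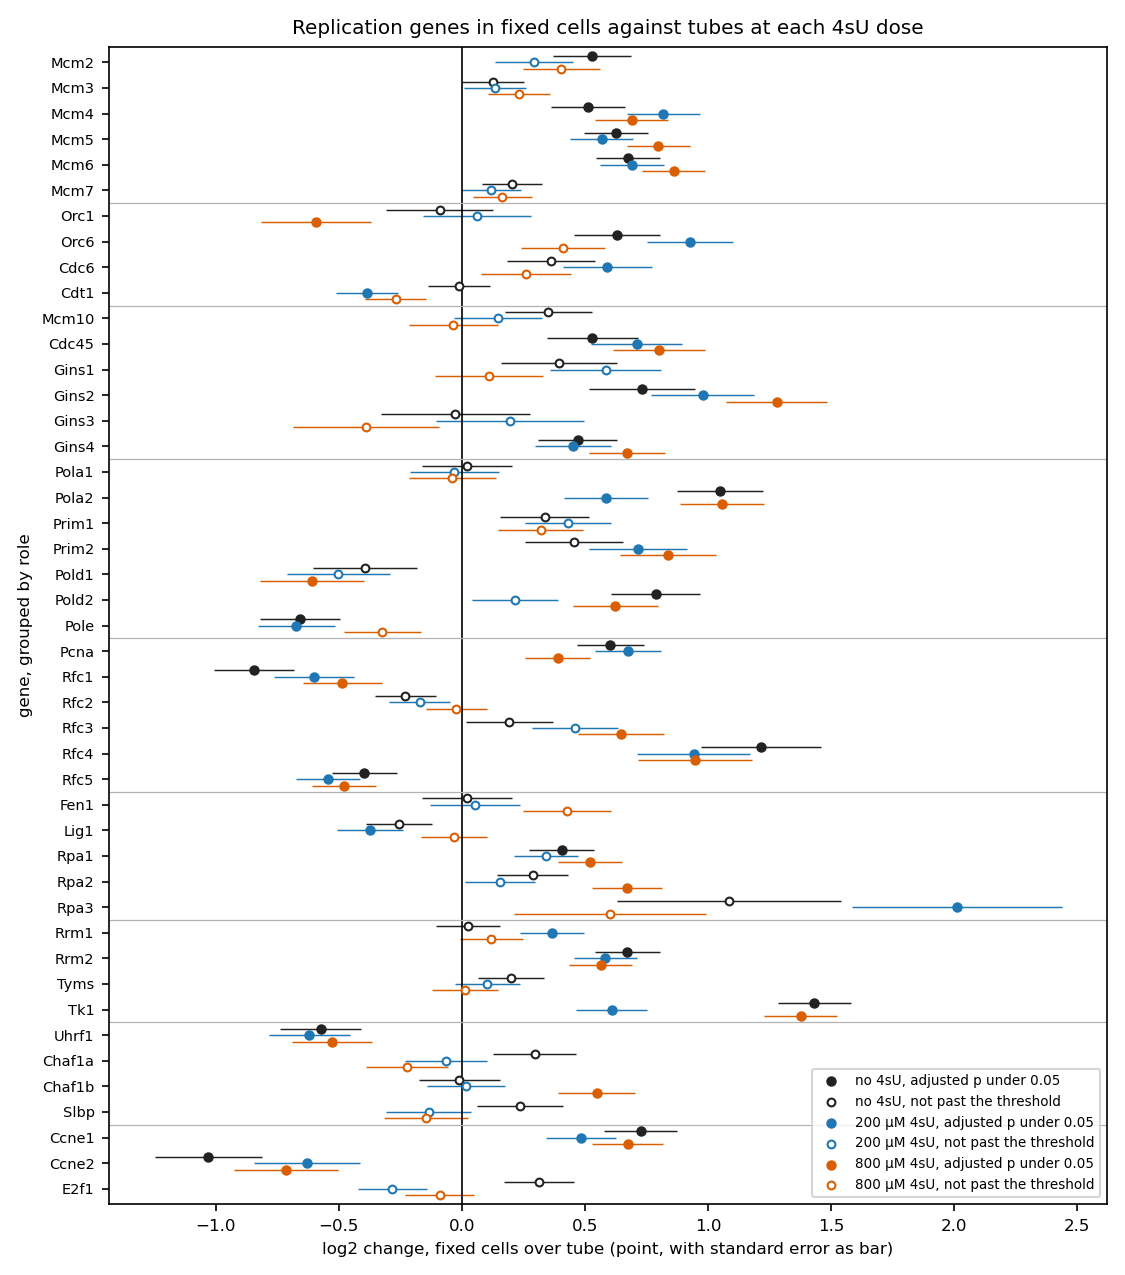
Log2 change in fixed cells over tubes of each of the 45 genes (edgeR), without 4sU (black), at 200 µM (blue) and at 800 µM (orange); bars are standard errors and filled points passed the adjusted p of 0.05. Tk1, Pola2, Rfc4, Mcm5 and Mcm6 lie right of 0 at each dose and Rfc1, Rfc5, Uhrf1 and Ccne2 left of it; with scaling on low-ratio genes the median of all genes without 4sU lies at -0.27, and Mcm3 and Mcm7, at -0.14 and -0.06, move left of 0.

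In the MCM helicase, 4 of the 6 genes were called higher in fixed cells without 4sU (16.2% of all genes) and 0 were called lower (15.2%). Mcm6 had 195 and 178 CPM in fixed cells against 123 and 110.4 CPM in tubes (log2 change 0.68, SE 0.13, adjusted p = 0.000731), and Mcm5 had 177 and 174 CPM in fixed cells against 117 and 109.6 CPM in tubes (log2 change 0.63, SE 0.13, adjusted p = 0.00131). The procedures did not overlap for either gene, and with 4sU Mcm6 had 196 to 233 CPM in fixed cells against 119.5 to 134 CPM in tubes, and Mcm5 had 185 to 244 CPM in fixed cells against 121 to 131 CPM in tubes. Both kept their call with each of the 4 libraries left out in turn. Mcm2 and Mcm4 were higher by 0.53 and 0.51 on the log2 scale. The call of Mcm2 was lost without 3 of the 4 libraries and that of Mcm4 without 2 of them, and with scaling on low-ratio genes their adjusted p was 0.213 and 0.187. At 200 and 800 µM, Mcm2 was not called, while Mcm4 was called higher and kept its call with each library left out in turn. Without 4sU, Mcm3 and Mcm7 had 0.13 and 0.20 and did not pass. In the scaling on low-ratio genes Mcm3 and Mcm7 had log2 changes of -0.14 and -0.06.

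Among the 10 genes that license and fire origins, 4 were called higher in fixed cells without 4sU (16.2% of all genes) and 0 lower (15.2%). The 4 were Orc6 (log2 change 0.63), Gins2 (0.73), Cdc45 (0.53) and Gins4 (0.47). None of these 4 kept the call without 4sU with each library left out in turn. With 4sU, Gins2 kept it at 200 and 800 µM, Orc6 at 200 µM and Cdc45 at 800 µM, while Gins4 kept it at neither dose. Cdc6 was called higher at 200 µM, a call lost when any 1 of the 4 libraries was left out. At 800 µM, Orc1 was called lower (-0.59, adjusted p = 0.0464), but the call was lost when any 1 of the 4 libraries was left out (adjusted p 0.0604 to 0.27). Gins2 reached 1.28 at 800 µM, with 92.8 and 58.1 CPM in fixed cells and 29.8 and 32.1 CPM in tubes (adjusted p = 0.00014), and its fixed library A was the highest of all. Cdt1 had 118 and 113 CPM in fixed cells and 114 and 119 CPM in tubes without 4sU, where the groups overlapped (log2 change -0.01, SE 0.13, adjusted p = 0.962). With 4sU it had 96.6 and 104 CPM in fixed cells against 127 and 136 CPM in tubes at 200 µM, where it was called lower (log2 change -0.39, adjusted p = 0.0242), and 101 and 109.8 CPM in fixed cells against 122 and 132 CPM in tubes at 800 µM (-0.27, adjusted p = 0.101). The call of Cdt1 at 200 µM was lost with DESeq2 (adjusted p = 0.053), without the filter (0.0609), and without tube library B (0.121), fixed library A (0.149) or fixed library B (0.0649).

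Of the 7 polymerase and primase genes, 2 were called higher in fixed cells without 4sU (16.2% of all genes) and 1 was called lower (15.2%). Pola2, the accessory subunit of polymerase alpha, had 139 and 128 CPM in fixed cells against 62.8 and 66 CPM in tubes without 4sU (log2 change 1.05, SE 0.17, adjusted p = 0.000215), and 92 to 136 CPM in fixed cells against 58.1 to 83.2 CPM in tubes with 4sU. Pold2, the accessory subunit of polymerase delta, had 60.7 and 67.2 CPM in fixed cells against 41.9 and 32.5 CPM in tubes (log2 change 0.79, SE 0.18, adjusted p = 0.00289), and 57.3 to 83.2 CPM in fixed cells against 44.1 to 55.7 CPM in tubes with 4sU. Both were apart in every comparison of groups at the same dose, but Pold2 was not called at 200 µM. Pold2 kept its call for 3 of the 4 libraries left out in turn without 4sU and for 2 of the 4 at 800 µM. Pola2 was called at each dose, and at 200 µM it kept its call for 2 of the 4. Pole, the catalytic subunit of polymerase epsilon, went the other way, with 36.8 and 36.3 CPM in fixed cells against 55.8 and 59.5 CPM in tubes (log2 change -0.66, SE 0.16, adjusted p = 0.00446), and 40.2 to 46.2 CPM in fixed cells against 51.1 to 74.9 CPM in tubes with 4sU. Pole was also called lower at 200 µM but not at 800 µM. The catalytic subunits Pola1 and Pold1 had log2 changes of 0.02 and -0.39 and did not pass without 4sU. The primase genes Prim1 and Prim2 had 0.34 and 0.46 and did not pass without 4sU either. Prim2 was called higher at 200 and 800 µM. At 800 µM, Pold1 was called lower (-0.61, adjusted p = 0.0324), and the call was lost without tube library B (-0.31, adjusted p = 0.37), without fixed library A (-0.25, adjusted p = 0.426) and with DESeq2 (adjusted p = 0.0555).

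The clamp and its loader held genes of both directions. Pcna had 198 and 214 CPM in fixed cells against 151 and 121 CPM in tubes without 4sU (log2 change 0.60, SE 0.14, adjusted p = 0.00242), and it was also higher at 200 µM (0.67) and at 800 µM (0.39). The call was lost without tube library B at no 4sU (adjusted p = 0.0579) and at 800 µM (0.158), without tube library A at 800 µM (0.0885), and with scaling on low-ratio genes at no 4sU (0.0554) and at 800 µM (0.462). Rfc4 had 19.7 and 22.2 CPM in fixed cells against 9.14 and 8.92 CPM in tubes (log2 change 1.22, SE 0.24, adjusted p = 0.000984), and 17.6 to 25 CPM in fixed cells against 8.64 to 11.5 CPM in tubes with 4sU. Both were apart at each dose. Rfc1, the largest clamp loader subunit, had 106 and 99.5 CPM in fixed cells against 165 and 204 CPM in tubes (log2 change -0.84, SE 0.16, adjusted p = 0.000729), and 89 to 128 CPM in fixed cells against 138 to 166 CPM in tubes with 4sU, so that no fixed library reached the lowest tube library. Rfc4 and Rfc1 kept their calls without 4sU with each of the 4 libraries left out in turn. At 200 and 800 µM, Rfc4 kept its call for 3 of the 4 and Rfc1 for 2 of the 4. Rfc5 was called lower without 4sU (log2 change -0.40), a call that was lost without any 1 of the 4 libraries (adjusted p 0.0588 to 0.156). Rfc2 and Rfc3 had -0.23 and 0.19 without 4sU and did not pass there. Rfc3 was called higher at 800 µM, a call kept for 2 of the 4 libraries left out in turn.

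Tk1 had the largest change of the 45 genes without 4sU. It had 415 and 381 CPM in fixed cells against 155 and 139.6 CPM in tubes (log2 change 1.43, SE 0.15, adjusted p = 4.42e-06), 284 and 379 CPM in fixed cells against 201 and 234 CPM in tubes at 200 µM (log2 change 0.61), and 471 and 420.1 CPM in fixed cells against 166 and 178 CPM in tubes at 800 µM (1.38). Every fixed library was above every tube library. The call of Tk1 was kept with each of the 4 libraries left out in turn without 4sU and at 800 µM, and for 2 of the 4 at 200 µM. With its ratio, the level splits into new and older RNA. At 800 µM the new part of Tk1 came to 78.6 and 90.8 CPM in fixed cells and 47.7 and 51.7 CPM in tubes, and the older part to 392 and 329 CPM in fixed cells and 118 and 126 CPM in tubes. At 200 µM the new part came to 72.8 and 99.5 CPM in fixed cells and 74.3 and 95.1 CPM in tubes, and the older part to 211 and 279.9 CPM in fixed cells and 127 and 139 CPM in tubes. The new parts thus overlapped between procedures at 200 µM and did not at 800 µM, while the older parts overlapped at neither dose. In this split a lower ratio puts more of the level in the older part. The median ratio of all 5538 genes was also lower in fixed cells, at 35.1% against 41.0% at 200 µM and 29.0% against 36.3% at 800 µM. No share over all genes is given for the split, so it is not shown to be particular to Tk1. Rrm2 had 138 and 152 CPM in fixed cells against 98.6 and 83.5 CPM in tubes without 4sU (log2 change 0.67, SE 0.13, adjusted p = 0.000797) and 154 to 158 CPM in fixed cells against 98.5 to 111 CPM in tubes with 4sU, also without overlap. Rrm1 and Tyms had 0.03 and 0.20 (log2) without 4sU and did not pass there. Rrm1 was called higher at 200 µM, but the call was lost when any 1 of the 4 libraries was left out.

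The E cyclins, which drive entry into S phase, went opposite ways. Ccne1 had 88.7 and 83.5 CPM in fixed cells against 57.3 and 47 CPM in tubes without 4sU (log2 change 0.73, SE 0.15, adjusted p = 0.00113), and 87 to 107 CPM in fixed cells against 61.1 to 67.2 CPM in tubes with 4sU. Ccne2 had 23.1 and 37.4 CPM in fixed cells against 51.2 and 72.8 CPM in tubes (log2 change -1.03, SE 0.22, adjusted p = 0.00149), and 26.9 to 38.2 CPM in fixed cells against 49.7 to 64.7 CPM in tubes with 4sU. Neither gene overlapped between procedures at any dose. Both were called at each dose, but at 200 µM each kept its call for only 1 of the 4 libraries left out in turn. At 800 µM, Ccne1 kept its call for each of the 4 and Ccne2 for 3 of the 4. E2f1 had a log2 change of 0.31 (adjusted p = 0.105). Among chromatin genes, Uhrf1 was called lower (-0.57, adjusted p = 0.012) but not without 2 of the 4 libraries (adjusted p 0.113 and 0.157). The histone chaperone genes Chaf1a and Chaf1b had 0.30 and -0.01 without 4sU and did not pass there. Chaf1b was called higher at 800 µM, a call kept for 3 of the 4 libraries left out in turn. Of the single strand binding and Okazaki genes without 4sU, Rpa1 was called higher (0.41) but not without 3 of the 4 libraries or with scaling on low-ratio genes (adjusted p = 0.424), Rpa3 had 1.09 and did not pass, and Fen1 and Lig1 had 0.02 and -0.26 and did not pass. Rpa1 and Rpa2 were called higher at 800 µM, and Rpa2 kept that call with each of the 4 libraries left out in turn. Lig1 was called lower at 200 µM, but the call was lost when any 1 of the 4 libraries was left out. Rpa3 had 17.1 and 8.49 CPM in fixed cells against 3.87 and 2.56 CPM in tubes at 200 µM, where it passed as higher (log2 change 2.01, SE 0.43, adjusted p = 0.00155).

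**Figure D4:**
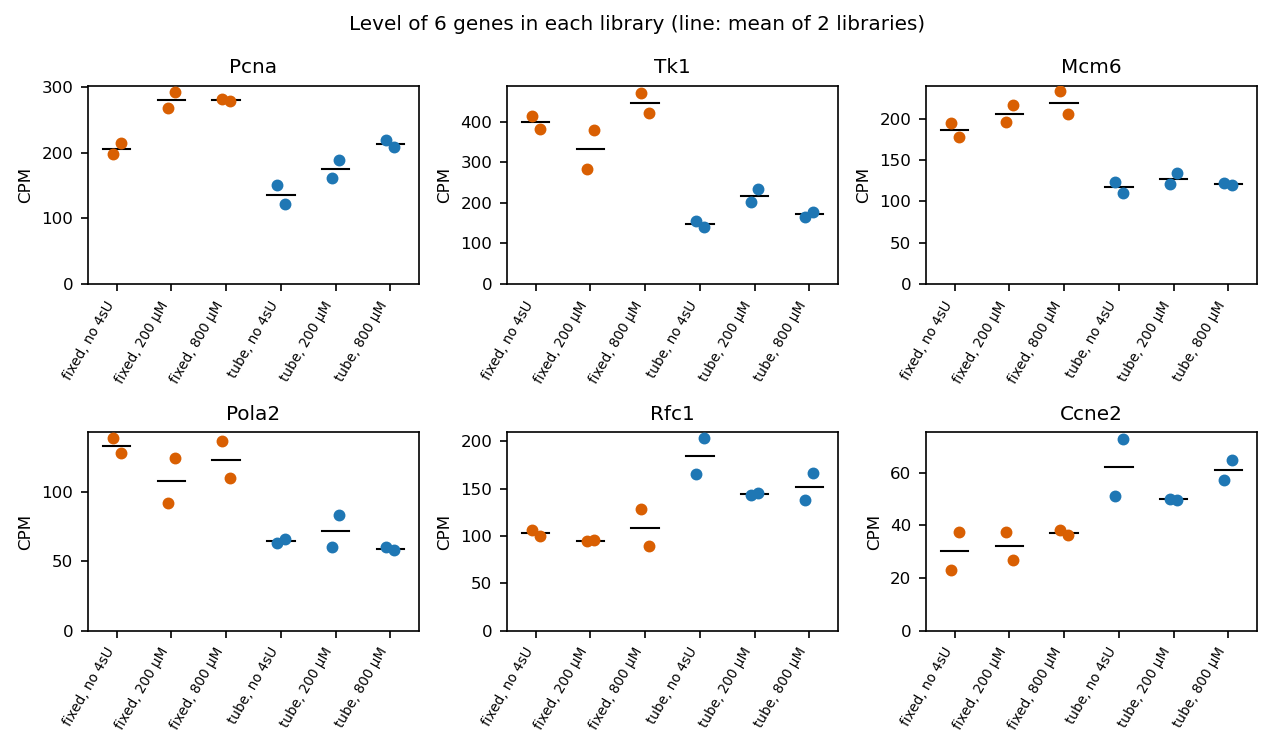
CPM of Pcna, Tk1, Mcm6, Pola2, Rfc1 and Ccne2 in each library, fixed cells (orange) left of tubes (blue), with the mean of 2 libraries as a line. At each dose the fixed libraries lie above the tube libraries for Pcna, Tk1, Mcm6 and Pola2 and below them for Rfc1 and Ccne2.

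The difference between the procedures moved with gene length. Over all 11080 genes, Spearman's rho between the deposited length and the log2 change in fixed cells over tubes without 4sU was -0.42, with a median change of 0.52 in the shortest decile of genes and -0.50 in the longest. Over the 45 replication genes rho was -0.48. The 16 genes called higher had a median length of 2309 bases (1279 to 5077) and the 5 called lower one of 3751 bases (3006 to 7163). The median of the 45 genes was 3006 bases, against 3385 bases for all genes tested. Among the longer genes, Rpa1, Mcm6 and Gins2 were among those higher, and Ccne2, of 3006 bases, had the lowest log2 change. The part of length in the differences of single genes was not tested. At 200 and 800 µM, rho over the 45 genes was -0.42 and -0.39.

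**Figure D5:**
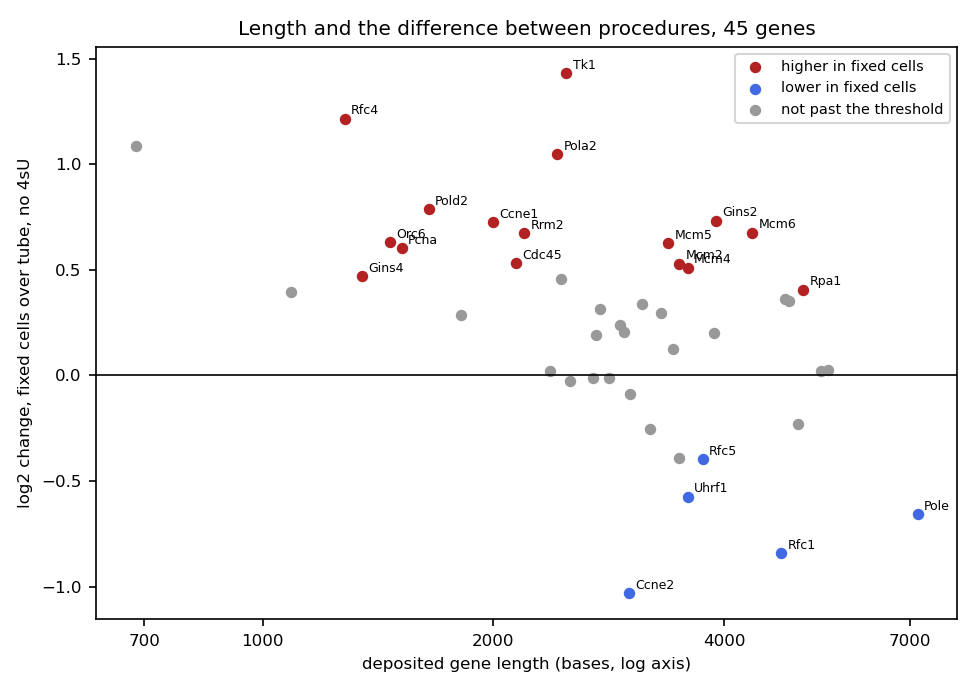
Log2 change in fixed cells over tubes without 4sU against deposited gene length (bases, log axis) for the 45 genes; red genes were called higher, blue ones lower, and grey ones did not pass. Rfc4, at 1279 bases, is the shortest gene called higher, and Pole, at 7163 bases, is the longest of the 45 genes and was called lower.

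Other genes of the pathway, 107 in 6 lists of which 105 were tested, differed between the procedures in both directions. Of 12 other nucleotide supply genes, 5 were higher in fixed cells without 4sU and 0 lower (edgeR; 16.2% and 15.2% of all genes). They included Nme2 (log2 change 1.22), Dut (0.83), which removes dUTP, Dctpp1 (0.80) and Shmt1 (0.84), the first 4 by p. Of 20 other fork and Okazaki genes, 6 were higher, among them Rnaseh2c (0.82) and Rnaseh2a (0.58), subunits of an enzyme that removes RNA from DNA, and Pole4 (0.45), and 3 were lower. Of 10 other chromatin copying genes, 3 were higher (the histone chaperone gene Asf1b by 0.69, Rbbp4 by 0.54 and Rbbp7 by 0.54) and 0 lower. Of 16 other licensing and firing genes, Gmnn (1.03), the inhibitor of Cdt1, and Orc3 (0.96) were higher and Topbp1 (-0.58) was lower. Of 25 G1 to S regulators, 3 were higher and 4 lower, led by Cdk6 (-0.80), a kinase of G1, and Ccna2 (0.58), cyclin A2. Of 22 checkpoint and fork repair genes, 4 were higher, with Msh6 (1.20) first by p, and 1 was lower, Hus1 (-1.03).

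After 4sU, some genes of these lists were called. In fixed cells at 800 µM, 1 of 25 G1 to S regulators was higher and 3 were lower, 2 of 20 fork genes were lower, 1 each of the licensing, chromatin and checkpoint genes was lower, and 0 of 12 nucleotide genes were called, while 0.776% of all genes were higher and 1.89% lower. Cdkn1a, which encodes the p21 inhibitor of cyclin-dependent kinases and can bind PCNA, was higher in fixed cells at 200 µM (0.92) and 800 µM (1.09) and in tubes at 200 µM (1.34) and 800 µM (1.42). Comparisons of one procedure share their untreated libraries. Cdc7, the kinase that activates MCM at origins, was lower in fixed cells at 200 µM (-1.11) and 800 µM (-1.13) and in tubes at 800 µM (-0.91). Cdkn2d, an inhibitor of the G1 kinases, was lower in the same 3 comparisons (-1.23, -0.97 and -1.01). In fixed cells, Dna2, a nuclease of Okazaki fragments, was lower at both doses (-1.05 and -1.33), and Wdhd1 (-1.08), Hells (-0.78), Blm (-0.91), E2f7 (-0.69) and Fbxo5 (-0.60) were lower at 800 µM. Bard1 was lower in fixed cells at 200 µM (-1.38). In tubes, Mtbp (-1.49) and Casp8ap2 (-0.81) were lower and Nme2 (0.56) higher at 200 µM, and Cdc25a (-0.61) was lower at 800 µM.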

How the data were processed

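One deposited table of 15217 genes was used, with 6 groups of 2 libraries. It holds expected counts for each gene in each library, as deposited by the authors, and, in the 8 libraries that received 4sU, the new-to-total ratio as a fraction (maximum a posteriori value, mean, and 0.05 and 0.95 quantiles), per the file headers. Per the submitters' processing notes, the tools were cutadapt, STAR 2.7.10b and Bowtie2 2.3.0. For the genome build, annotation, counting rule and ratio estimator, the sources used here state nothing. Columns of the table not used here numbered 16. Coordinates were matched by gene ID to GENCODE M21 (GRCm38), and promoters came from RefSeq.

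Counts were rounded and tested in R 4.3.3 with the quasi-likelihood F test of edgeR 4.0.16, TMM scaling, filterByExpr (minimum count 10, minimum total 15) and Benjamini-Hochberg adjustment over 11080 genes at 0.05, in 1 fit of the 6 groups. CPM are TMM-scaled. Ratios, kept within 0.01 and 0.99, were tested with limma 3.58.1 (trend) on the logit scale over the 5538 genes with at least 100 counts in each library with 4sU. The comparisons of fixed cells with tubes at 200 and 800 µM were added after seeing the data. Scripts were tested on simulated data. Depth was 3629630 to 7762640 counts a library, which limits the precision of low genes, and the lowest count of a replication gene was 11.

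The 45 genes and the 6 pathway lists were chosen with earlier results of these data known. Values in every library were given for the 12 genes with the smallest adjusted p, the highest gene per kilobase of each role, the 3 highest and 3 lowest ratios, and the 3 largest changes at 800 µM in each procedure. Pathway genes were named where called, by smallest adjusted p, at most 4 a list and comparison. Some pathway genes that the rule would name are not reported here. Alternatives were DESeq2 1.42.0 as a test and as size factors, scaling on low-ratio genes, no filter, a replicate block, each library left out, and for the ratio its posterior mean, count minimums of 50 and 200, and limits of 0.001 and 0.999.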

Additional observations from a re-analysis of the deposited data

How the results depend on the processing

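Counts of replication genes called between fixed cells and tubes, higher and lower together, stayed within 1.5 times of the reported ones in several alternatives. These were DESeq2, DESeq2 size factors, scaling on low-ratio genes and no filter. The balance of higher and lower moved with scaling on low-ratio genes, as given above. Without 1 library, the counts of both directions together were 12 to 18 without 4sU, 12 to 16 at 200 µM and 15 to 22 at 800 µM. The call counts lowest without 4sU came without tube library B (12), and those at 200 µM without fixed library B (12). In tubes at 200 µM the count was 0 with scaling on low-ratio genes, 0 to 0 without 1 library, and at 800 µM 0 to 1. In fixed cells at 800 µM against no 4sU it was 3 with scaling on low-ratio genes, 2 without the filter, 1 with the DESeq2 test and 0 to 5 without 1 library (5 without 800 µM library B); for the dose step it was 0 to 4. The difference between procedures at 200 µM gave 1 gene without the filter, Tk1. For the ratio, the counts were 0 to 6 at 800 µM between procedures and 0 to 6 for the dose step in fixed cells. The causes were not tested. No result changed its direction while called.

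Deviations of same-letter libraries correlated at -0.111 to 0.106 over 15 pairs of groups, 1 of them over 0.1. No large effect shared by a letter was thus seen. These correlations cannot tell whether libraries of the same letter came from the same culture. With a replicate block, 0 genes were called in tubes at 200 µM, 21 between procedures without 4sU, 23 at 200 µM and 23 at 800 µM. With 2 libraries a group, small differences were not detectable, and genes with few counts, such as Rpa3, had the widest errors (SE 0.45 without 4sU).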
